A study of Homo sapiens with 6 samples.

Results

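The genes described here were chosen by name, as 36 genes of triacylglycerol synthesis, droplet formation and lipolysis, of which 29 had a row among the 12396 named genes of the deposited table. The other 7 (PLIN1, PLIN5, CIDEC, FITM1, LIPE, HSD17B13 and MOGAT2) had none and were not analysed here. All libraries came from JHH-4, a human hepatocellular carcinoma cell line. The control group held 3 libraries of cells labelled wild type. The overexpression group held 3 libraries of cells in which a plasmid with the primary transcript raised hsa-miR-372-3p. The sources used here do not state what the control cells carried, how long the plasmid was present or whether the cells were a clone. The series calls the replicates technical, so p-values measure only the spread between these libraries.

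Triacylglycerol is the form in which cells store fatty acids. Acyl chains are placed on glycerol 3-phosphate in sequence, with the phosphate removed before the last, and the product gathers between the leaflets of the endoplasmic reticulum membrane and buds off as a lipid droplet. Perilipins and other proteins coat the droplet, and lipases, of which adipose triglyceride lipase (ATGL, coded by PNPLA2) acts first, release the fatty acids again. In hepatocytes these droplets supply fatty acids for oxidation and for lipoproteins, and their excess is steatosis.

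Counts in named genes ran from 46851245 to 60070397 per library, with the 3 overexpression libraries the deeper ones. Along the second axis of a principal component analysis (10.2% of the variance), control replicate 3 lay away from both other controls. Of 17 hepatocyte and hepatocellular carcinoma markers, 8 had a row, led by the keratins KRT8 and KRT18. The defining hepatocyte genes ALB, APOA1, APOB, TTR and HNF4A, and the tumour markers AFP and GPC3, had none. Of 12 adipocyte markers 3 had a row (PLIN4, PPARG and CFD). Their summed level was 107 to 112 CPM (counts scaled to a common library size, with TMM factors) in control libraries and 96.4 to 97.5 in overexpression libraries. The stromal and endothelial list had 3 of 10 with a row, COL1A1, PDGFRB and LUM, summing to 15.9 to 18.4 CPM in controls and 83.5 to 91.1 with overexpression. COL1A1 made up most of that difference (4.84 ± 1.97 against 64.0 ± 3.63 CPM, SD, n = 3), PDGFRB rose 2.23-fold and LUM did not pass. Their part in the results below was not tested.

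miR-372-3p finds its targets mainly through bases 2 to 8, the seed, shown in capitals. These bases are shared with miR-373-3p and miR-302a-3p, and with 12 mature human miRNA names in all in the RefSeq table (GRCh38.p14). The sequences are shown because the sites below are read against them.
hsa-miR-372-3p: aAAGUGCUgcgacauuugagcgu
hsa-miR-373-3p: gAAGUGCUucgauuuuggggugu
hsa-miR-302a-3p: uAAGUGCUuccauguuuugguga

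The seed pairs with AGCACTT in a messenger RNA. AGCACTT was present in the longest annotated 3′ UTR (GENCODE 29, GRCh38) of 9 of the 29 genes, against 25.5% of the 12192 genes searched. The first copy in each of the 6 of these 9 that fell with overexpression, and that in ABHD5, the activator of ATGL, which did not pass, are given here with flanking bases, in DNA letters on the gene's own strand, the match in capitals. The copy in PNPLA3 is followed by A and so is the 8-base form, AGCACTTA.
PNPLA3, chr22:43946563-43946570, plus strand: tgcagcggtccAGCACTTAactctaataca
FITM2, chr20:44304479-44304485, minus strand: ctcccctttgcAGCACTTttcagtttcca
LPIN1, chr2:11824983-11824989, plus strand: gataggaagggAGCACTTtctaggctagg
AGPAT3, chr21:43985383-43985389, plus strand: acaatgtaagcAGCACTTtcttgtgtaaa
MGLL, chr3:127689957-127689963, minus strand: gagacacacacAGCACTTcagtagcattt
BSCL2, chr11:62690333-62690339, minus strand: cctcacattccAGCACTTtcccacctgac
ABHD5, chr3:43719542-43719548, plus strand: agaaatgagctAGCACTTgggtttgttgt

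With miR-372-3p overexpression the storage genes went in both directions. Of the 29 genes, 8 rose and 9 fell at an edgeR adjusted p under 0.05, and 12 did not pass. Over all genes tested, 54.5% passed, 26.8% higher and 27.7% lower. The share among the storage genes, 58.6%, was therefore near that background. Their median log2 fold change was −0.0040, against 0.0013 over all genes. In 18 of the 29 (62.1%) the libraries of the groups did not overlap in CPM, against 62.2% of all genes. At the same threshold, differences of at least 2-fold were seen for 2 of the 29, against 6.03% of all genes. These were G0S2, which rose, and FITM2, which fell. RNA was measured in bulk, so fewer cells with a transcript and less of it per cell cannot be told apart.

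**Figure D1:**
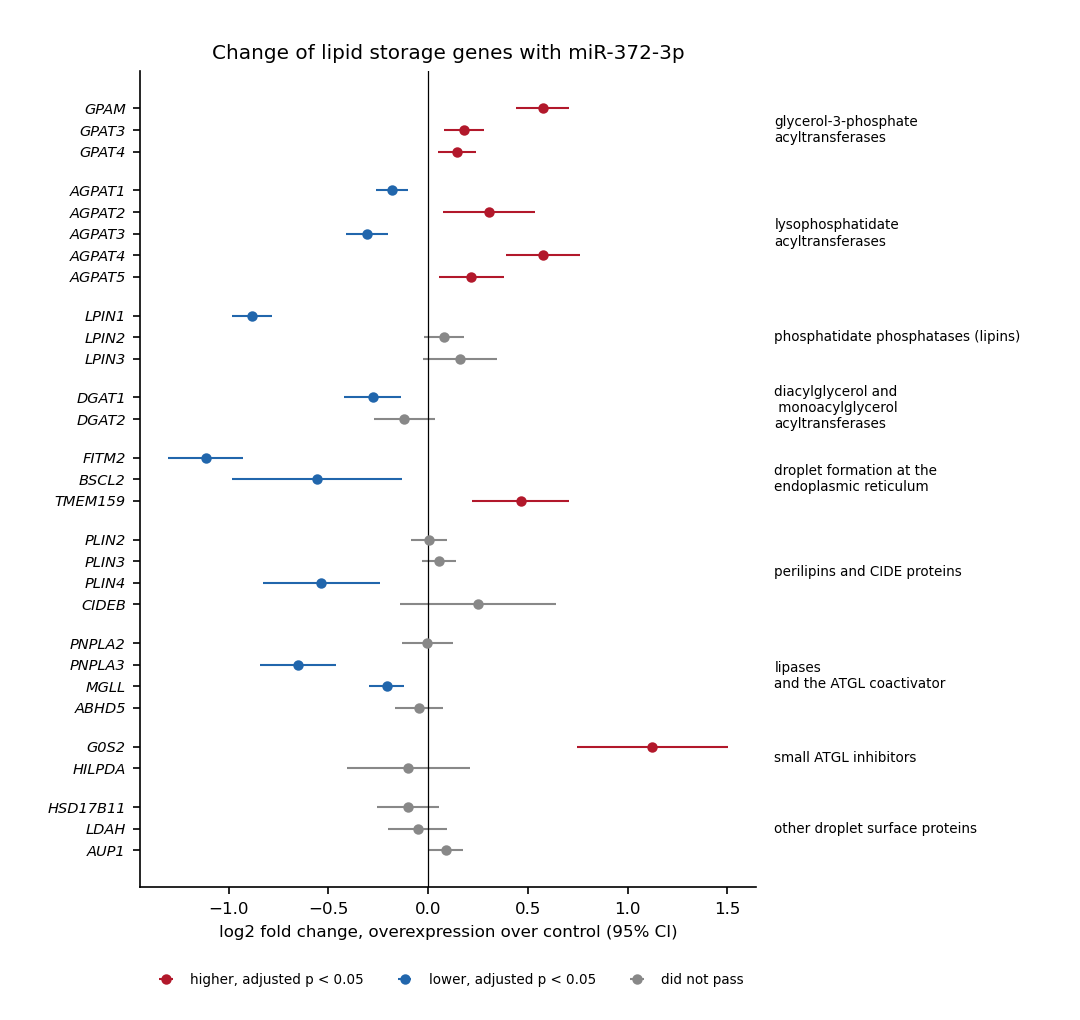
Log2 fold change of overexpression over control for each of the 29 genes, grouped by role, with points at the edgeR estimate and bars for the 95% confidence interval. G0S2 lies farthest to the right at 1.12 and FITM2 farthest to the left at −1.12, while PLIN2 and PNPLA2 lie at 0.00298 and −0.00401.

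All 3 glycerol-3-phosphate acyltransferases, which attach the first acyl chain, rose. The largest change was in GPAM (chromosome 10, 112149864 to 112215377, minus strand), which codes for the mitochondrial enzyme. It stood at 24.6, 23.1 and 23.7 CPM in control replicates 1 to 3 and at 36.8, 33.2 and 36.4 CPM with overexpression. The groups did not overlap. The difference was 1.49-fold (log2 0.57, standard error 0.059, edgeR adjusted p = 3.00e-05). GPAT3, an enzyme of the endoplasmic reticulum, was at 61.5, 62.6 and 59.0 CPM in controls and at 70.2, 68.2 and 69.0 CPM with overexpression. That was a rise of 0.18 ± 0.044 on the log2 scale (edgeR adjusted p = 0.00645). GPAT4, its close relative, rose by 0.14 ± 0.042 on the log2 scale, from 101, 99.4 and 108 CPM to 114, 113 and 114 CPM (edgeR adjusted p = 0.0154). Leaving out control replicate 1 gave an edgeR adjusted p of 0.0647, and leaving out overexpression replicate 1 gave 0.0524.

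Levels of different genes were compared in the deposited FPKM, which divides by transcript length. GPAT3 had the highest FPKM of the 3 in each library and GPAM the lowest. GPAM held 8.81, 8.34 and 8.51% of their summed FPKM in the controls and 11.3, 10.5 and 11.3% with overexpression. The summed FPKM of the 3 genes was 38.8 ± 0.533 in control and 45.0 ± 1.18 in overexpressing cells (SD, n = 3). The share of GPAM did not overlap between groups (exact permutation test, two-sided p = 0.1, the smallest that 3 against 3 allows). It was 1 of 8 shares and ratios compared, and the Benjamini-Hochberg value was 0.267.

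The lysophosphatidate acyltransferases, which add the second chain, all passed the test but split. AGPAT4, AGPAT2 and AGPAT5 rose, and AGPAT3 and AGPAT1 fell. AGPAT4 was at 10.1, 11.8 and 11.6 CPM in controls and at 16.4, 17.1 and 16.5 CPM with overexpression, with no overlap. Its log2 fold change was 0.58 ± 0.083 (edgeR adjusted p = 0.000259). AGPAT3 moved the other way. Its levels were 71.9, 70.7 and 67.0 CPM in controls and 55.1, 56.1 and 58.1 CPM with overexpression (log2 fold change −0.31 ± 0.047, edgeR adjusted p = 0.000397).

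AGPAT1, the AGPAT with the highest FPKM (44.3 ± 0.345 in control, SD, n = 3), fell by 0.18 on the log2 scale (edgeR adjusted p = 0.00220). It lies in the major histocompatibility complex, and 29.9% of its exonic bases are shared with PPT2-EGFL8 on the other strand, which rose (0.68 ± 0.130). The library kit does not mark strand, so reads of the shared bases cannot be assigned to either gene. AGPAT2, whose loss causes congenital lipodystrophy, rose from 12.8, 13.7 and 16.1 CPM to 17.1, 19.4 and 16.2 CPM (log2 fold change 0.30 ± 0.102, edgeR adjusted p = 0.0290). The lowest overexpression library was barely above the highest control. AGPAT5 rose from 19.6, 21.3 and 23.0 CPM to 24.2, 24.1 and 25.9 CPM (log2 fold change 0.22 ± 0.073, edgeR adjusted p = 0.0293). Both calls were lost when certain single libraries were left out. For AGPAT2 the edgeR adjusted p became 0.106, 0.0595, 0.0603 and 0.112 without control replicate 1, control replicate 2, overexpression replicate 1 and overexpression replicate 2. For AGPAT5 it was 0.111, 0.0556 and 0.104 without control replicate 1, overexpression replicate 1 and overexpression replicate 3.

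In sum the 5 AGPAT genes had an FPKM of 71.3 ± 1.79 in control and 68.4 ± 0.523 with overexpression (SD, n = 3). AGPAT1 made up the greater part of it. No test was made of the totals of families.

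The lipins turn phosphatidate into diacylglycerol, the step before the last acyl chain. LPIN1 (chromosome 2, 11677595 to 11827409, plus strand), which also acts as a transcriptional coactivator of fatty acid oxidation genes in liver, fell 1.84-fold. Its levels were 59.0, 60.4 and 56.5 CPM in controls and 31.5, 31.9 and 32.0 CPM with overexpression. The overexpression libraries were close together (SD 0.298 CPM, n = 3) and far below the lowest control (log2 fold change −0.88 ± 0.045, edgeR adjusted p = 2.95e-07). The AGCACTT shown above lies at base 192 of its 3′ UTR of 2618 bases and is in 3 of its 8 coding transcripts.

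LPIN2 and LPIN3 did not pass. LPIN2 was at 65.6 ± 2.00 CPM in control and 69.4 ± 1.5 with overexpression (SD, n = 3; 95% interval of the log2 fold change −0.019 to 0.18). LPIN3 was at 18.6 ± 1.62 and 20.8 ± 1.34 CPM (SD, n = 3; interval −0.024 to 0.35). Neither 3′ UTR held a 6-base match, GCACTT. LPIN1 was the highest of the 3 in FPKM in every control library and below LPIN2 in every overexpression library. Its share of lipin FPKM was 41.8, 42.6 and 43.2% in controls and 27.4, 26.7 and 26.8% with overexpression (exact permutation test, two-sided p = 0.1, Benjamini-Hochberg value 0.267). The summed lipin FPKM went from 24.1, 23.7 and 23.1 in controls to 19.9, 19.7 and 20.4 with overexpression.

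DGAT1 and DGAT2 attach the last acyl chain. DGAT1 fell, from 31.7, 32.0 and 35.5 CPM in controls to 28.2, 25.8 and 27.9 CPM with overexpression (log2 fold change −0.28 ± 0.064, edgeR adjusted p = 0.00438). The groups did not overlap. DGAT2 was at 22.4 ± 0.650 and 20.7 ± 1.39 CPM (SD, n = 3) and did not pass (log2 fold change −0.12, 95% interval −0.27 to 0.036). Per length their levels were close: DGAT1 held 47.6, 48.3 and 51.8% of the FPKM of the pair in controls and 45.2, 46.5 and 47.8% with overexpression. These shares overlapped (exact permutation test, two-sided p = 0.2, Benjamini-Hochberg value 0.4).

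**Figure D2:**
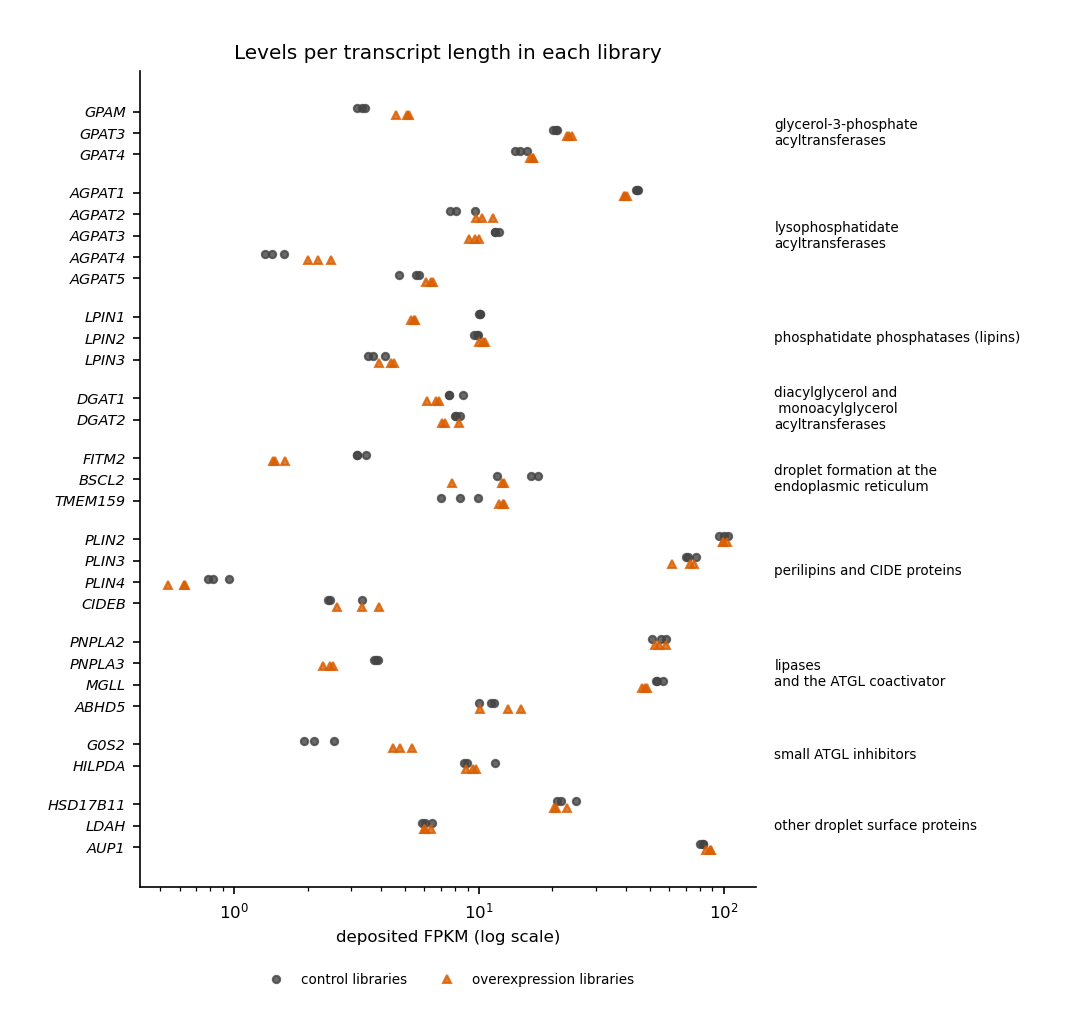
Deposited FPKM of each gene in each library on a log axis, grouped by role, with circles for the 3 control and triangles for the 3 overexpression libraries. PLIN2, AUP1 and PLIN3 lie highest and PLIN4 lowest, and for LPIN1, FITM2, PNPLA3 and G0S2 the groups are clearly apart.

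Among proteins that shape nascent droplets in the endoplasmic reticulum, FITM2 fell 2.17-fold. FITM2 (chromosome 20, 44302838 to 44311169, minus strand) codes for a membrane enzyme that is needed for droplets to bud toward the cytosol. Its levels were 16.4, 16.7 and 17.7 CPM in controls and 7.37, 7.74 and 8.37 CPM with overexpression. The groups were far apart, with 16.4 CPM the lowest control value and 8.37 CPM the highest with overexpression. The log2 fold change was −1.12 ± 0.084 (95% interval −1.3 to −0.93, edgeR adjusted p = 3.47e-06). Its single coding transcript holds 2 copies of AGCACTT and 3 further copies of GCACTT in 3787 bases of 3′ UTR, the most matches among the 29 genes.

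TMEM159 (now LDAF1), which assembles with seipin at the sites where droplets form, rose. It was at 17.1, 14.5 and 20.2 CPM in controls and at 23.1, 23.6 and 24.8 CPM with overexpression (log2 fold change 0.46 ± 0.108, edgeR adjusted p = 0.00488). The control libraries were spread over a wider range than the overexpression libraries, and the groups did not overlap.

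BSCL2, which codes for seipin itself, passed as lower, but its counts depend on how reads were split between overlapping genes. Its levels were 20.2, 32.1 and 27.6 CPM in controls and 13.2, 20.1 and 21.0 CPM with overexpression, so the groups overlapped (log2 fold change −0.56 ± 0.191, edgeR adjusted p = 0.0316). The read-through gene HNRNPUL2-BSCL2 covers 40.6% of the exonic bases of BSCL2 on the same strand. It had 34.7, 8.71 and 20.3 CPM in controls and 39.9, 28.4 and 23.3 CPM with overexpression. In both groups the library with the least BSCL2 had the most of the read-through gene.

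Summed, the 2 rows gave 54.9, 40.8 and 48 CPM in controls and 53.2, 48.6 and 44.3 CPM with overexpression. The log2 fold change of the sum was 0.024 ± 0.102 (95% interval −0.20 to 0.25, edgeR adjusted p = 0.858). This sum was chosen after seeing the data. With it, 8 genes fell in place of 9. The call for BSCL2 alone was also lost without control replicate 2 (edgeR adjusted p = 0.0989), without overexpression replicate 1 (0.0959), with DESeq2 (0.0823) and with limma on log2(FPKM + 0.1) (0.0938).

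**Figure D3:**
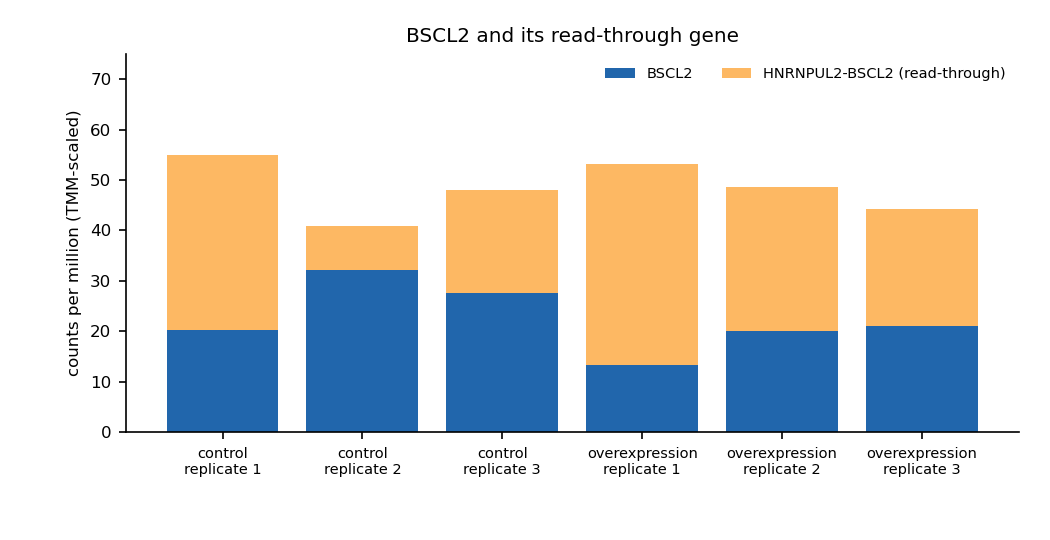
Stacked bars of TMM-scaled CPM of BSCL2 (lower part) and of the read-through gene HNRNPUL2-BSCL2 (upper part) in each library. BSCL2 alone ranges from 13.2 to 32.1 CPM, while the stacks reach 40.8 to 54.9 CPM in controls and 44.3 to 53.2 CPM with overexpression.

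The main droplet coats did not pass. PLIN2 is the perilipin found on most droplets of liver cells, and its protein is often used as a measure of droplet content. RNA alone was measured here, not droplets. PLIN2 had the highest FPKM of all 29 genes. It was at 222, 214 and 229 CPM in controls and at 217, 230 and 220 CPM with overexpression. The 95% interval of its log2 fold change ran from −0.087 to 0.093. PLIN3, which binds nascent droplets, was at 146 ± 4.19 and 152 ± 3.30 CPM (SD, n = 3; interval −0.031 to 0.14). Of the 3 perilipins with a row, PLIN4, a long repeat-rich coat protein, was the one that passed. It was low, at 6.03, 5.82 and 6.90 CPM in controls and at 4.54, 3.92 and 4.46 CPM with overexpression (log2 fold change −0.54 ± 0.131, edgeR adjusted p = 0.00634).

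PLIN2 made up 56.2, 57.4 and 58.9% of perilipin FPKM in controls and 56.5, 58.3 and 61.6% with overexpression (exact permutation test, two-sided p = 0.6, Benjamini-Hochberg value 0.686). CIDEB, which promotes the lipidation of very low density lipoprotein, was at 7.0 ± 1.29 and 8.32 ± 1.71 CPM (SD, n = 3) and did not pass (edgeR adjusted p = 0.253). NOP9 on the other strand shares 61.1% of its exonic bases, and LTB4R2 39.9%, so the counts of CIDEB are uncertain.

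Of the lipases, PNPLA2 did not pass and 2 others fell. PNPLA2 was at 152, 161 and 138 CPM in controls and at 156, 151 and 144 CPM with overexpression (95% interval of the log2 fold change −0.13 to 0.13). PNPLA3, a hydrolase and transacylase of the droplet surface known for its part in fatty liver, fell 1.57-fold. It was at 11.9, 11.6 and 11.4 CPM in controls and at 7.65, 7.36 and 7.21 CPM with overexpression, with no overlap (log2 fold change −0.65 ± 0.085, edgeR adjusted p = 0.000143). PNPLA3 alone among the 29 genes held the 8-base form AGCACTTA, which was in 4.05% of the genes searched, 44.7% of which fell.

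MGLL, which splits monoacylglycerol in the last step of lipolysis, fell. Its levels were 265, 282 and 262 CPM in controls and 232, 238 and 231 CPM with overexpression (log2 fold change −0.21 ± 0.040, edgeR adjusted p = 0.00153). The fall was small, but the groups did not overlap.

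ATGL is switched on by ABHD5 (CGI-58) and held back by the small proteins G0S2 and HILPDA. G0S2 (chromosome 1, 209675420 to 209676388, plus strand) rose 2.18-fold. With 98, 118 and 91 counts in controls and 257, 237 and 291 with overexpression it was a low transcript. In CPM these were 2.09, 2.53 and 1.87 against 4.29, 4.69 and 5.19, with no overlap (log2 fold change 1.12 ± 0.169, edgeR adjusted p = 0.000356). Its 3′ UTR of 392 bases held no GCACTT.

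HILPDA, induced by hypoxia, was at 12.7, 9.57 and 14.3 CPM in controls and at 12.1, 10.5 and 11.5 CPM with overexpression. These overlapped (95% interval of the log2 fold change −0.41 to 0.21). ABHD5 was at 50.2 ± 2.55 and 48.6 ± 1.93 CPM (SD, n = 3; interval −0.17 to 0.073). The FPKM ratio of G0S2 to PNPLA2 was 0.0382, 0.0439 and 0.0379 in controls and 0.0768, 0.0871 and 0.101 with overexpression (exact permutation test, two-sided p = 0.1, Benjamini-Hochberg value 0.267). In FPKM, G0S2 was far below PNPLA2 in every library. The ratio of HILPDA to PNPLA2 was 0.179 ± 0.0415 in control and 0.170 ± 0.0160 with overexpression (SD, n = 3; exact permutation test, two-sided p = 0.8).

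For ABHD5 the deposited counts and FPKM ordered the libraries differently. Its FPKM was 11.2, 11.5 and 10.1 in controls and 13.1, 10.2 and 14.9 with overexpression. Dividing counts scaled by library totals alone, without TMM factors, by FPKM gives the transcript length, in kilobases, that the authors' estimate implied. For ABHD5 this was 4.64, 4.07 and 5.16 in controls and 3.83, 4.55 and 3.27 with overexpression, so the libraries differed up to 1.58-fold. For 90% of all genes the libraries differed by less than 1.26-fold. HILPDA, at 1.37-fold, was the other storage gene above 1.3-fold, which 7.79% of all genes exceeded. PLIN3 was just below, at 1.295-fold, with its longest implied length, 2.43, in overexpression replicate 3. Its FPKM and the perilipin shares given above are therefore uncertain in the same way. In overexpression replicate 3 the implied length of ABHD5 was the shortest and its FPKM the highest. The sources used here do not state which transcripts were counted. The FPKM ratios of ABHD5 and of HILPDA to PNPLA2 carry the same uncertainty. For ABHD5 the ratio was 0.199 ± 0.00306 in control and 0.232 ± 0.0486 with overexpression (SD, n = 3; exact permutation test, two-sided p = 0.4).

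The other 3 droplet surface proteins did not pass with edgeR or DESeq2, and 1 of them, AUP1, had an unadjusted edgeR p under 0.05. HSD17B11, a dehydrogenase of the 17-beta-hydroxysteroid family, was at 47.8 ± 4.26 and 44.5 ± 2.68 CPM (SD, n = 3; 95% interval of the log2 fold change −0.26 to 0.055). The droplet-associated hydrolase gene LDAH was at 21.2 ± 0.747 and 20.5 ± 1.04 CPM (SD, n = 3; interval −0.20 to 0.097). AUP1, which brings ubiquitin-conjugating enzyme to droplets, was at 155, 157 and 148 CPM in controls and at 164, 167 and 160 CPM with overexpression. Its groups did not overlap, yet its edgeR adjusted p was 0.0712, and 0.0435 without control replicate 2.

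Of the 9 genes with AGCACTT in the 3′ UTR, 6 fell (FITM2, LPIN1, PNPLA3, BSCL2, AGPAT3 and MGLL), none rose, and ABHD5, HILPDA and PLIN3 did not pass. At an unadjusted p under 0.05 the counts were 6 and 0 with edgeR and also with DESeq2. At an adjusted p under 0.05 DESeq2 gave 5 and 0, BSCL2 being lost. Of the 20 without it, 8 rose and 3 fell. Among all genes searched with AGCACTT, 32.1% fell and 26.2% rose, and among those without it 26.6% fell and 27.2% rose. In PLIN3 and HILPDA the log2 fold changes were 0.055 and −0.099.

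None of these shares was tested. BSCL2 counts among the 6 only by its own row. Of the copies shown above, that of PNPLA3 was in 2 of 2 coding transcripts and that of FITM2 in 1 of 1. The others were in 3 of 8 for LPIN1, 2 of 11 for AGPAT3, 4 of 11 for MGLL, 8 of 17 for BSCL2 and 2 of 7 for ABHD5. GPAM, GPAT4, AGPAT4 and TMEM159 held GCACTT without a preceding A, and all 4 rose. PLIN2 and HSD17B11 held it too and did not pass. Among all genes whose best match was GCACTT, 30.4% rose and 26.8% fell, and where it was GCACTTA, as in AGPAT4, PLIN2 and HSD17B11, 26.5% rose and 31.4% fell. DGAT1, PLIN4 and AGPAT1 fell with no 6-base match in the 3′ UTR searched.

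**Figure D4:**
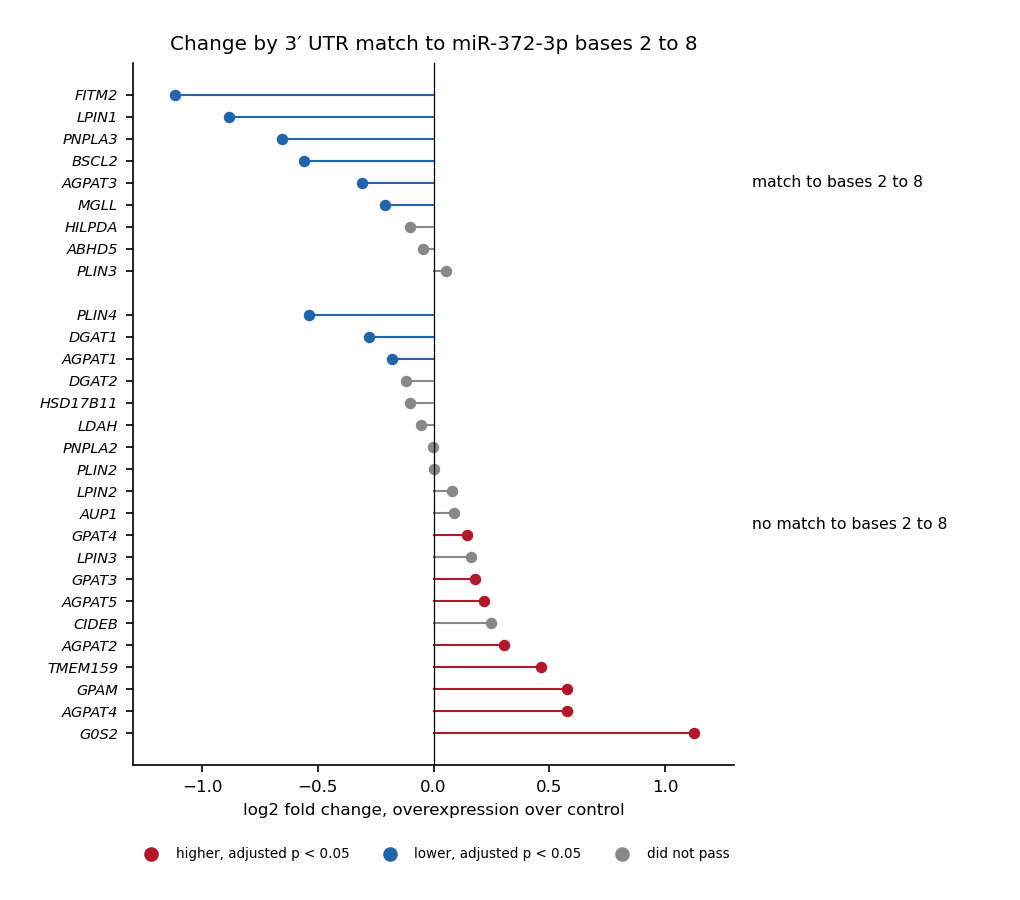
Log2 fold change of overexpression over control for the 29 genes, ordered within 2 classes by whether the 3′ UTR holds a match to bases 2 to 8 of miR-372-3p. The 9 genes of the upper class range from −1.12 (FITM2) to 0.055 (PLIN3), and the 20 of the lower class from −0.54 (PLIN4) to 1.12 (G0S2).

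Other genes of the pathway were read from 9 lists holding 143 measured genes that are not among the 29. Of these 41 rose and 48 fell, 62.2% against 54.5% of all genes. The list furthest to 1 side was the one named glycerol 3-phosphate supply, in which 5 of 7 fell and 0 rose with edgeR. Not all of its genes make glycerol 3-phosphate, so this count does not describe its supply alone. Over all genes, 27.7% fell and 26.8% rose. The counts for the list were 6 and 0 at an unadjusted edgeR p under 0.05, and 5 and 0 at an adjusted p with DESeq2. GPD1, which makes glycerol 3-phosphate from a glycolytic intermediate, was at 4.75 ± 0.863 CPM in control and fell to 2.36 ± 0.0935 (SD, n = 3; log2 difference −1.01 ± 0.170). Glycerol kinase, GK, was at 2.92 ± 0.322 CPM and fell to 1.71 ± 0.247 (SD, n = 3; log2 difference −0.77 ± 0.188). GPD1L, a relative of GPD1 with more counts than either, was at 18.2 ± 0.0448 CPM in control and 16.4 ± 0.660 with overexpression (SD, n = 3) and did not pass (edgeR adjusted p = 0.0684). GPD2, which oxidises glycerol 3-phosphate in mitochondria, fell (−0.46 ± 0.057). These last 2 genes were chosen after their values were seen. The third gene by size, G6PC3, is a glucose-6-phosphatase and not an enzyme of glycerol 3-phosphate (−0.51 ± 0.039). TPI1, an enzyme of glycolysis, completes the 5 that fell (−0.42 ± 0.033) and was also added after its value was seen.

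Phosphatidate and diacylglycerol also feed phospholipids. In that branch 7 of 18 genes rose (38.9%) and 3 fell (16.7%), against 26.8% and 27.7% of all genes. No list was tested against these shares of all genes, which also apply to the counts below. The largest changes were in the ethanolamine kinase ETNK2 (1.56 ± 0.074), the choline kinase CHKA (0.58 ± 0.060) and the phosphatidylserine decarboxylase PISD (0.53 ± 0.073). Among diacylglycerol kinases, which turn diacylglycerol back into phosphatidate, 2 of 9 rose and 3 fell. DGKG (−1.07 ± 0.155) and DGKI (−0.38 ± 0.068) fell and DGKD (0.43 ± 0.043) rose. Of 5 genes of lipin regulation, CNEP1R1 (0.32 ± 0.106) rose and the lipin phosphatase CTDNEP1 (−0.17 ± 0.047), its partner, fell. So did PLPP3 (−0.37 ± 0.060), a phosphatase of lipid phosphates rather than of lipins.

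Further acylglycerol hydrolases rose in 6 of 14 cases and fell in 4. PNPLA4 (1.06 ± 0.239), a relative of ATGL, and the endothelial lipase LIPG (0.78 ± 0.063) rose, and the monoacylglycerol lipase ABHD6 (−0.97 ± 0.097) fell. PNPLA4 was low, at 0.986 ± 0.293 CPM in control and 2.06 ± 0.133 with overexpression (SD, n = 3). Its deposited FPKM overlapped between the groups. For lipoprotein assembly and export, 3 of 9 rose and 3 fell. APOE (1.01 ± 0.035) rose, and the paralogous coat GTPases of secretion moved apart, SAR1A up (0.60 ± 0.049) and SAR1B down (−0.61 ± 0.069). The larger list of droplet proteins and contact sites was even, with 10 of 37 higher and 10 lower (27.0% each), near the shares of all genes. The small GTPase gene RAB32 (−1.94 ± 0.075), METTL7A (−1.68 ± 0.144), a methyltransferase of droplets, and the acyl-CoA synthetase ACSL3 (−0.63 ± 0.036), which sits on nascent droplets, changed most.

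Of 26 transcriptional regulators of lipid storage, 6 rose (23.1%) and 10 fell (38.5%), against 26.8% and 27.7% of all genes. The bile acid receptor gene NR1H4 (−1.13 ± 0.075), CEBPD (−0.97 ± 0.070) and SREBF1 (−0.83 ± 0.043), the regulator of lipogenic genes, fell most. In the list of hormone-sensitive signalling to lipolysis, 6 of 19 rose and 8 fell. IRS2 (1.08 ± 0.049), an adaptor of the insulin receptor, rose. The cAMP phosphodiesterase genes PDE3B (−0.72 ± 0.052) and PDE4D (0.70 ± 0.122) moved apart. Values in parentheses are log2 fold changes with standard errors, and each gene named here passed the edgeR threshold.

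**Figure D5:**
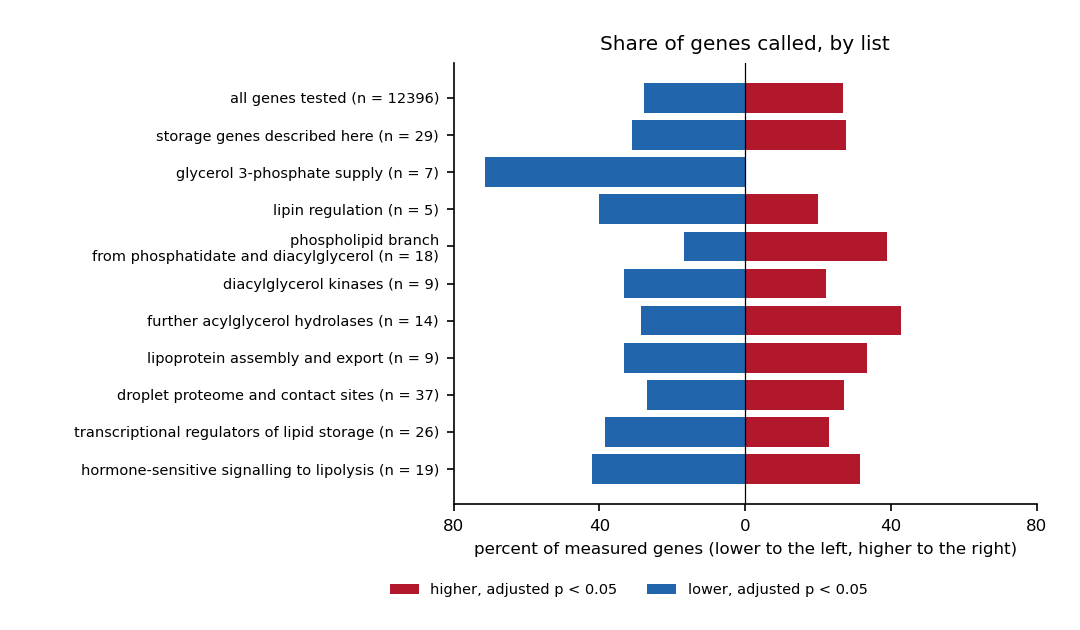
Percent of measured genes called lower (left) and higher (right) at an edgeR adjusted p under 0.05, for all genes tested, the 29 storage genes and each of 9 pathway lists, with the number of genes beside each name. The storage genes lie at 31.0% lower and 27.6% higher, close to all genes (27.7% and 26.8%). Glycerol 3-phosphate supply, with 7 genes, not all of which make that compound, lies at 71.4% lower.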

How the data were processed

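RNA-seq of 6 libraries, 3 a group by their titles, was analysed. Per the labels' protocols, 1 µg of total RNA went into libraries made with a NEBNext Ultra kit. The submitters' processing notes name GRCh38, DESeq2 1.38.3, HISAT2 2.0.4 and StringTie 2.2.1, with no step named for each; the sources used here do not state the counting rule. The table holds, per the file headers, raw counts and the authors' FPKM, p-value and log2 fold change; the last 2 were not used for any result. Of 14006 rows, 12396 carry a gene ID; the other 1610, without a gene name, held 2.64 to 3.63% of counts and were left out. No row has under 208 counts in all.

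The count test was edgeR 4.0.16 (R 4.3.3; TMM, quasi-likelihood F-test, 2 groups, Benjamini-Hochberg over 12396 genes, threshold 0.05); filterByExpr removed 0 genes. Standard errors and 95% intervals come from that fit. Tested on simulated data for this comparison and 12396 genes, it recovered 48% of genes changed 1.25-fold, 88% at 1.5-fold and 100% at 2-fold. The simulation gave every gene the same dispersion and changed few genes, unlike these data, so these rates do not give the power for any gene named here. Chi-square tests between replicates gave 6.86 to 38.6 per degree of freedom, above counting noise. FPKM served for levels between genes, shares and ratios. Alternatives were DESeq2 1.42.0, limma 3.58.1 on log2(FPKM + 0.1), other scalings and filters, and leaving out libraries.

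Members and lists were chosen with earlier results of these data known. All measured members are described; from each pathway list, up to 3 called genes, those that moved furthest, are named. Matches were sought in 3′ UTRs of at least 50 bases, taking for each gene the longest one among its coding transcripts (GENCODE 29). Some sequence is not reported here.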

Additional observations from a re-analysis of the deposited data

How the results depend on the processing

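Under 15 alternatives to the edgeR fit, 1 of them chosen after seeing the data, 5 of the 8 genes that rose and 8 of the 9 that fell passed in each one that tested them; G0S2 was removed at a mean of 5 CPM. GPAT4, AGPAT2, AGPAT5 and BSCL2 lost their call in at least 1. The number that rose was 5 to 8 when 1 library was left out (5 without control replicate 1 and 5 without overexpression replicate 1), and the number that fell was 8 or 9. Signs turned for genes near 0 and also for BSCL2, which was at −0.56 by its own row. Log2 fold changes of PLIN2 were −0.0058 with library totals only, −0.016 without control replicate 2 and −0.025 without overexpression replicate 2. PNPLA2 had 0.00073 with unnamed loci kept, 0.0027 with limma on FPKM, and 0.00017, 0.053 and 0.027 without control replicates 1 and 2 and overexpression replicate 3, in a range of −0.063 to 0.053 over single libraries left out. With limma on FPKM, PLIN3 had −0.061, ABHD5 0.20 and LDAH 0.0066. HILPDA had 0.031 without control replicate 3 and −0.24 without control replicate 2, and BSCL2 summed with its read-through gene 0.024. The cause of these turns was not tested. The replicate numbers gave no clear sign of pairing. The correlations of same-numbered deviations were −0.136, −0.0517 and 0.103. Overexpression replicates 1 and 2 correlated best with other numbers, and replicate 3 with its own. With 3 libraries a group these correlations cannot exclude pairing. With a replicate block, 8 genes rose and 9 fell, as without it.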
